A study of Homo sapiens with 9 samples.

Results

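The genes described here are 10 well-known direct targets of the co-activators YAP and TAZ: *CCN1*, *CCN2*, *ANKRD1*, *AMOTL2*, *NUAK2*, *F3*, *AXL*, *CRIM1*, *ARHGEF17* and *ASAP1*. They were named with earlier results of these data known, are 10 of the 60664 genes counted, and all 10 passed the filter on low counts that left 18264 genes for testing. RNA came from MDA-MB-231 cells, a human triple-negative breast cancer line with mesenchymal features, in 3 groups of 3 samples. Scramble control (SC) cells carried a hairpin with no target and were kept for 6 days at 0.77 cP, the viscosity of ordinary medium, or at 8 cP, reached by adding methylcellulose. The third group was shTRPV4 cells at 8 cP, in which 1 stable hairpin lowers *TRPV4*, a calcium channel of the cell membrane. All 3 groups thus carried a stable hairpin vector. A knockdown at 0.77 cP is not analysed here, so that a viscosity effect with and without the hairpin could not be set against each other.

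The Hippo pathway is a chain of kinases that ends in LATS1 and LATS2. When these kinases are active they phosphorylate YAP (gene *YAP1*) and TAZ (gene *WWTR1*) and keep them out of the nucleus. When YAP and TAZ enter the nucleus, they bind the TEAD transcription factors, which recognise the letters CATTCC in DNA, and raise the RNA of genes such as *CCN1* and *CCN2*. Stiff surroundings, spreading and tension of the actin skeleton are known to favour the nuclear form. Target genes also answer to other factors, among them AP-1, so that the targets need not move together.

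*TRPV4* itself was low in every sample. Its level lay between 0.264 and 0.647 CPM (counts divided by the TMM-scaled library size and written per 1e+06) in the 6 SC samples and between 0.0128 and 0.144 CPM in the 3 shTRPV4 samples, with no overlap. The markers of the line were read next: *VIM*, *CD44*, *ZEB1*, *EGFR* and *KRT18* were detected in every group, *ESR1*, *PGR* and *CDH1* stayed under 0.1 CPM as group means, and *EPCAM*, listed here as low or absent, was at 18.1 to 19.0 CPM. Of 4 markers of other cells, *PTPRC* and *CD3E* were under 0.2 CPM, while *PECAM1* (5.04, 2.75 and 2.18 CPM) and *COL1A1* (6.40, 5.03 and 4.43 CPM) were low and lower at 8 cP; their part in the results below was not tested. Total counts were 64571681 to 103518036 per sample, and each of the 10 targets had at least 187 counts in every sample. The labels do not say that the samples of a group came from separate cultures. The p-values thus set a difference against the spread between these samples, which may be technical.

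The stretches upstream of the transcription starts are shown first, because TEAD factors recognise the letters CATTCC. Sites further from the starts were not searched. RefSeq start windows (GRCh38.p14, 250 bases before to 50 after a start) were found for 6 of the 10 genes and gave 8 windows; the windows of *CCN1*, *CRIM1*, *ARHGEF17* and *ASAP1* were not analysed here. Each stretch is written 5′ to 3′ on the strand of the gene. Capitals stand on CATTCC (or GGAATG, the same letters read on the other strand) and on TGANTCA. The latter, with any base at N, was searched here as the AP-1 letters. They lie at chr6:131951442-131951561 (*CCN2*, minus strand), chr10:90921190-90921327 (*ANKRD1*, minus), chr1:205321746-205321962 (*NUAK2*, minus), chr19:41226523-41226568 (*AXL*, plus, upstream of the second of its 2 starts) and chr1:94541943-94542002 (*F3*, minus). None of these stretches holds an exon in GENCODE 44 except that of *F3*, all 60 bases of which lie in an exon of ENSG00000288736 on the opposite strand.
CCN2: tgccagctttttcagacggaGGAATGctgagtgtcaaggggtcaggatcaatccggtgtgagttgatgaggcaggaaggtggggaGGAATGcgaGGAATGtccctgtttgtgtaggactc
ANKRD1: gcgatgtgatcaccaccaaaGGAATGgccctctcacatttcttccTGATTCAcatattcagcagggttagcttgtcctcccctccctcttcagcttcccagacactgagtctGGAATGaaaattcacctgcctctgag
NUAK2: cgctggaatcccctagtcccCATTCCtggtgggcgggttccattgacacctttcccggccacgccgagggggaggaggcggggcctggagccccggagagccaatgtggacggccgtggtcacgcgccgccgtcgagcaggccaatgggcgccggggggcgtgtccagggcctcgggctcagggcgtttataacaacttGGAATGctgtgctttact
AXL: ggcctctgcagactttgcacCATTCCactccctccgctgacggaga
F3: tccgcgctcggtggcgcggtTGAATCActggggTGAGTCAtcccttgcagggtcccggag

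The *CCN2* window held 3 copies of the TEAD letters, a number reached by 0.128% of all 35116 RefSeq windows of this length. *ANKRD1* and *NUAK2* held 2 copies each, and 1.37% of windows held 2 or more. The second start of *AMOTL2* and the second start of *AXL* held 1, against 14.0% of windows with at least 1. The first starts of both genes, and *F3*, held none. The AP-1 letters stood 2 times in the *F3* window and once in that of *ANKRD1*, against 7.71% of windows with at least 1 and 0.515% with 2 or more. The cyclic AMP response element TGACGTCA and the CArG box, the site of SRF, were in none of the 8 windows and in 1.85% and 1.29% of all windows. Matches on both strands were counted, no match overlapped another, and a match describes the letters only, not binding.

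**Figure D1:**
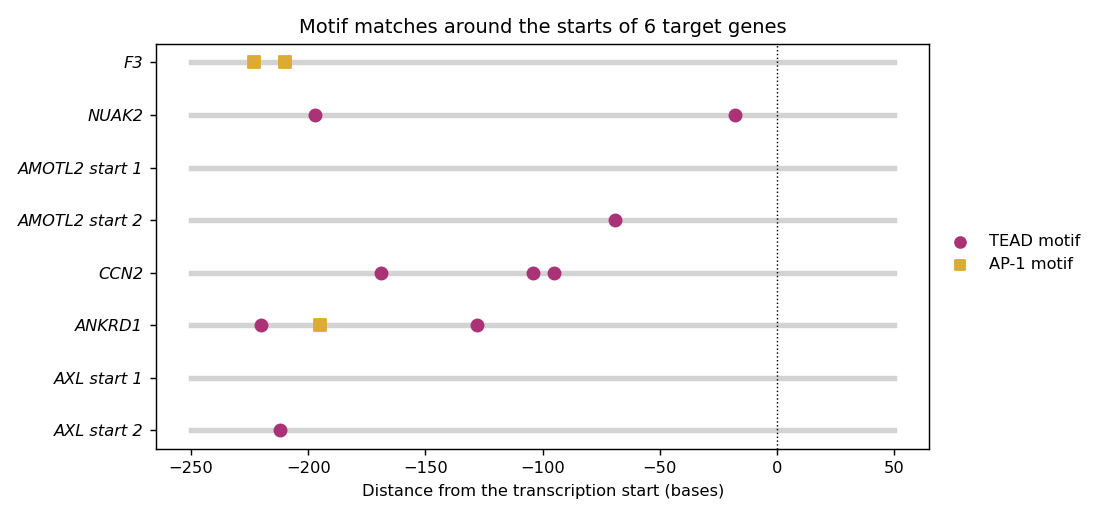
Positions of TEAD letters (circles) and AP-1 letters (squares) from 250 bases before to 50 bases after each RefSeq start of 6 target genes; the x axis is the distance from the start in bases and the dotted line the start. CCN2 shows 3 TEAD matches, ANKRD1 and NUAK2 show 2 each, and F3 shows 2 AP-1 matches and no TEAD match.

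Each comparison moved 7 of the 10 targets past the threshold (adjusted p below 0.05 by the quasi-likelihood test of edgeR, Benjamini-Hochberg over all genes tested), but not the same ones and not one way. With viscosity, that is from 0.77 to 8 cP in SC cells, 5 targets fell (*NUAK2*, *CCN1*, *AMOTL2*, *ANKRD1*, *CCN2*) and 2 rose (*AXL*, *CRIM1*). Of all genes tested, 19.3% were called in this comparison, 9.57% higher and 9.69% lower. This share was 7.58% without replicate 1 and 10.3% without replicate 2 of SC cells at 0.77 cP, and 7.56% without replicate 3 of SC cells at 8 cP. In shTRPV4 against SC cells at 8 cP, 5 targets were higher (*ANKRD1*, *NUAK2*, *F3*, *CCN1*, *ASAP1*) and 2 lower (*AXL*, *CRIM1*), where 20.0% of all genes were called, 9.02% higher and 11.0% lower (12.6% and 11.7% in all without replicate 1 and 2 of SC cells at 8 cP). When the shTRPV4 cells were set against SC cells at 0.77 cP, 3 were higher (*F3*, *ASAP1*, *ANKRD1*) and 4 lower (*NUAK2*, *AMOTL2*, *CCN2*, *ARHGEF17*), where 42.4% of all genes were called, 20.4% higher and 22.0% lower. The comparisons share samples pairwise, so their counts are not independent of each other. The shares of all genes, here and below, were not matched to the targets by level. By mean CPM per kb over the 9 samples, *CCN1*, *ANKRD1*, *AXL*, *F3* and *CCN2* ranked 80 to 272 from the top of 18227 genes. *CRIM1*, *AMOTL2* and *ASAP1* ranked 1219 to 2881, and *ARHGEF17* and *NUAK2* 6045 and 9219. The part of level in these counts was not tested. In these bulk samples fewer cells that express a gene and less of its RNA per cell cannot be told apart. Where a call was lost with a sample left out or a setting changed, the adjusted p that resulted is given in parentheses.

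The samples of the 2 groups did not overlap for 8, 7 and 6 of the 10 targets in these comparisons, against 38.4%, 36.3% and 50.6% of all genes. The median log2 fold change of the 10 was -0.19 in the first comparison, 0.145 in the second and -0.13 in the third, beside -0.0065, 0.00064 and -0.011 over all genes tested. Leaving out replicate 1 or replicate 2 of SC cells at 0.77 cP lowered the first count from 7 to 4, all of them lower at 8 cP, while the share of all genes called fell to 7.58% and 10.3%. Only *NUAK2* changed by at least 1 on the log2 scale, and only in the 2 comparisons with SC cells at 0.77 cP.

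**Figure D2:**
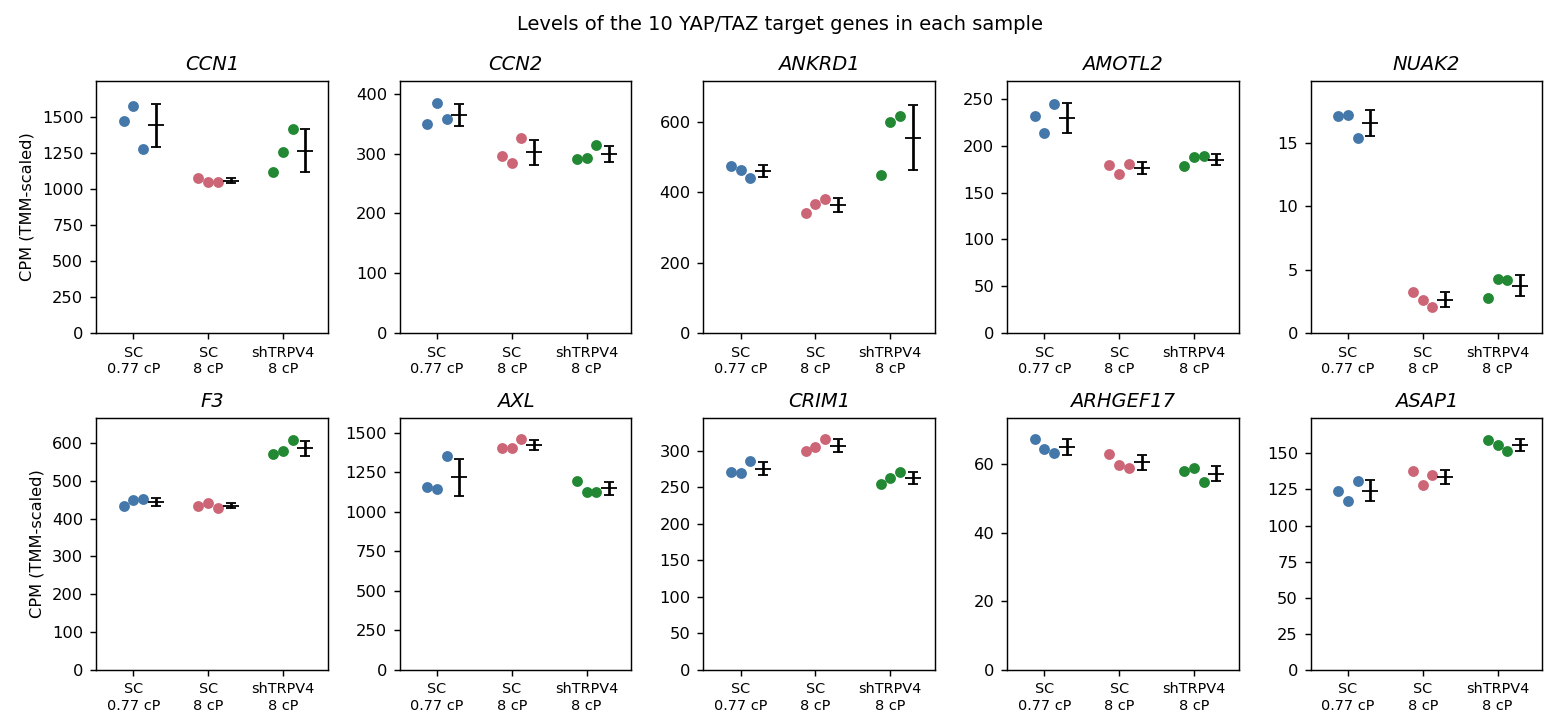
Level of each target (y axis, CPM, from 0) in each of the 9 samples (points, by group on the x axis), with the mean and SD of each group (black). NUAK2 drops from 15.4 to 17.2 CPM at 0.77 cP to under 5 CPM in all 6 samples at 8 cP, whereas F3 stands apart in shTRPV4 cells and AXL is highest in SC cells at 8 cP.

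**Figure D3:**
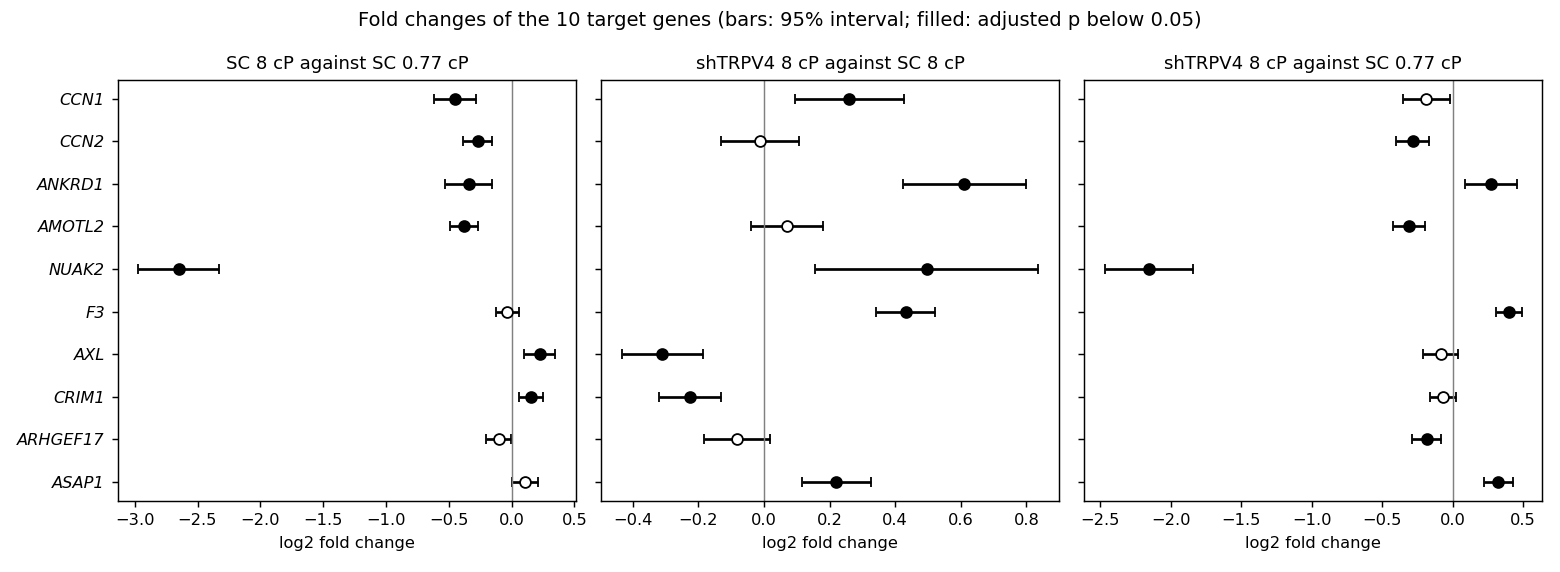
Log2 fold change (x axis) of each target (y axis) in the 3 comparisons, with bars for the 95% interval and filled points for an adjusted p below 0.05. In the left panel 5 filled points lie below 0 and 2 above, and in the middle panel 5 lie above 0 and 2 below.

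The secreted targets come first. *CCN1* (ENSG00000142871, chr1:85580761-85584589, plus strand) encodes a secreted matricellular protein that binds integrins, and had the highest mean of the 10 per kb of exon in each group. The 3 replicates, here and below in numerical order, were at 1470, 1573 and 1277 CPM in SC cells at 0.77 cP, at 1074, 1047 and 1044 CPM in SC cells at 8 cP, and at 1119, 1254 and 1417 CPM in shTRPV4 cells. All 3 SC samples at 8 cP lay under all other samples, and the shTRPV4 samples overlapped those at 0.77 cP. *CCN1* fell at 8 cP by 0.45 on the log2 scale (SE 0.0785, edgeR adjusted p = 0.00185). It was 0.26 higher in shTRPV4 than in SC cells at 8 cP (SE 0.0784, edgeR adjusted p = 0.029), and -0.19 against SC cells at 0.77 cP did not pass (95% interval -0.355 to -0.022, edgeR adjusted p = 0.0648). The second of these calls was lost without replicate 1, 2 or 3 of SC cells at 8 cP (adjusted p = 0.0693, 0.093 and 0.0708) or without replicate 2 or 3 of shTRPV4 cells (0.0692 and 0.126). The third difference passed without replicate 3 of SC cells at 0.77 cP (adjusted p = 0.0106), without replicate 3 of shTRPV4 cells (0.00736) and with no filter on low counts (0.000847).

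*CCN2* (ENSG00000118523, chr6:131948176-131951372, minus strand), the paralog of *CCN1* once called connective tissue growth factor, fell at 8 cP, and differed between the 2 groups at 8 cP by less than the spread between replicates. Its levels were 350.0, 385 and 358 CPM in SC cells at 0.77 cP, 297, 285 and 325 CPM in SC cells at 8 cP, and 292, 292 and 314 CPM in shTRPV4 cells. The samples at 0.77 cP lay above all 6 samples at 8 cP, and the SC and shTRPV4 samples at 8 cP overlapped. The log2 fold change was -0.27 with viscosity (SE 0.0556, edgeR adjusted p = 0.00451) and -0.28 between shTRPV4 cells and SC cells at 0.77 cP (edgeR adjusted p = 0.000746). Between the groups at 8 cP it was -0.013, with a 95% interval of -0.131 to 0.106 (edgeR adjusted p = 0.904). *CCN2* shares 278 exon bases with LINC01013 on the other strand, and the strand setting of the counting is not given in the sources used here.

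The other CCN genes were scarce. *CCN3* stood at 6.92 to 7.09 CPM in both groups at 8 cP and was called in no comparison, *CCN5* was below 0.2 CPM in the same groups and not called, and *CCN4* and *CCN6* did not pass the filter on low counts.

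*F3* (ENSG00000117525, chr1:94529173-94541759, minus strand) encodes tissue factor, the membrane receptor that starts blood clotting by binding factor VII. It was at 433, 449 and 453 CPM in SC cells at 0.77 cP, at 433, 442 and 429 CPM in SC cells at 8 cP, and at 571, 579 and 608 CPM in shTRPV4 cells. The 3 shTRPV4 samples lay above all 6 SC samples, which overlapped each other. *F3* was 0.43 higher on the log2 scale in shTRPV4 than in SC cells at 8 cP (SE 0.0427, edgeR adjusted p = 5.38e-06) and 0.40 higher than in SC cells at 0.77 cP (edgeR adjusted p = 3.57e-06). The difference with viscosity was -0.034, with a 95% interval of -0.125 to 0.0564 (edgeR adjusted p = 0.618). These 3 results kept their call and direction in all 17 alternatives each.

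Partners of tissue factor were measured beside it. *F7* and *F10*, the clotting factors it works with, did not pass the filter on low counts. *TFPI2*, a protease inhibitor related to the tissue factor pathway inhibitor, was at 53.7 ± 3.10, 58.6 ± 1.67 and 71.2 ± 5.51 CPM (SD, n = 3) in the order of the groups, and was higher in shTRPV4 cells by 0.28 against SC cells at 8 cP (edgeR adjusted p = 0.00345) and by 0.41 against those at 0.77 cP (5.86e-05). *TFPI*, the inhibitor itself, was called only between shTRPV4 cells and SC cells at 0.77 cP, at -0.16 (edgeR adjusted p = 0.0302), with overlapping samples. That call was lost in 7 of 17 alternatives, among them without replicate 1 (adjusted p = 0.101) or 2 (0.184) of SC cells at 0.77 cP, replicate 1 (0.055) or 2 (0.054) of SC cells at 8 cP and replicate 1 of shTRPV4 cells (0.129).

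*ANKRD1* (ENSG00000148677, chr10:90912096-90921087, minus strand), an ankyrin repeat protein of the nucleus and the sarcomere, moved in opposite directions with viscosity and with the hairpin. It was at 475, 464 and 442 CPM in SC cells at 0.77 cP, at 342, 369 and 382 CPM in SC cells at 8 cP, and at 450, 601 and 617 CPM in shTRPV4 cells. SC cells at 8 cP lay below every other sample, and replicate 1 of the shTRPV4 cells lay within the range of SC cells at 0.77 cP while the other two stood above it. The fall with viscosity was -0.34 (SE 0.0878, edgeR adjusted p = 0.0149) and was lost without replicate 1 (0.0812) or 2 (0.0569) of SC cells at 0.77 cP or replicate 1 of SC cells at 8 cP (0.0722).

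The difference of *ANKRD1* between shTRPV4 and SC cells at 8 cP, 0.61 (SE 0.0879, edgeR adjusted p = 0.000185), was the widest of the 10 targets in that comparison and kept its call in all 17 alternatives that refit the model, though it is below 1. Against SC cells at 0.77 cP it was 0.27 higher in shTRPV4 cells (SE 0.0877, edgeR adjusted p = 0.0205). That call was lost without replicate 3 of SC cells at 0.77 cP (adjusted p = 0.0508) and without replicate 2 (0.0991) or 3 (0.102) of the shTRPV4 cells. Its relative *ANKRD23* was tested but not called, at under 0.15 CPM in both groups at 8 cP, and *ANKRD2* did not pass the filter.

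*AMOTL2* and *NUAK2* encode proteins that act back on the pathway or on the actin skeleton. *AMOTL2* (ENSG00000114019, chr3:134355347-134375479, minus strand) encodes a motin, a junction protein that binds YAP and holds it in the cytoplasm. It was at 232, 213 and 245 CPM in SC cells at 0.77 cP, at 180, 169 and 181 CPM in SC cells at 8 cP, and at 179, 188 and 189 CPM in shTRPV4 cells. As for *CCN2*, all 6 samples at 8 cP lay below the 3 at 0.77 cP and the 2 groups at 8 cP overlapped. The log2 fold change was -0.38 with viscosity (SE 0.0518, edgeR adjusted p = 0.00027), -0.31 between shTRPV4 cells and SC cells at 0.77 cP (edgeR adjusted p = 0.000192) and 0.069 between the groups at 8 cP (95% interval -0.0409 to 0.18, edgeR adjusted p = 0.391). *AMOTL2* shares 187 exon bases on the same strand with the pseudogene RPL39P5. How reads in such shared bases were counted is not given in the sources used here.

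Of the other motins, *AMOT* did not pass the filter, and *AMOTL1* moved the other way from *AMOTL2*. *AMOTL1* was at 142 ± 6.21, 161 ± 1.52 and 167 ± 8.40 CPM (SD, n = 3) in the order of the groups. It rose with viscosity by 0.18 (edgeR adjusted p = 0.0145), a call lost without replicate 2 of SC cells at 0.77 cP (0.0644) or replicate 3 of SC cells at 8 cP (0.0505), and was 0.23 higher in shTRPV4 cells than in SC cells at 0.77 cP (edgeR adjusted p = 0.00107).

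*NUAK2* (ENSG00000163545, chr1:205302063-205321745, minus strand), a kinase of the AMPK family that raises actomyosin tension and, as background, YAP activity, showed the widest change of the 10. It was at 17.2, 17.2 and 15.4 CPM in SC cells at 0.77 cP, at 3.21, 2.64 and 2.06 CPM in SC cells at 8 cP, and at 2.77, 4.23 and 4.20 CPM in shTRPV4 cells. No sample at 8 cP reached 5 CPM, and replicate 1 of the shTRPV4 cells lay within the range of the SC samples at 8 cP. *NUAK2* fell by 2.65 on the log2 scale with viscosity (SE 0.152, 6.27-fold lower, edgeR adjusted p = 1.28e-08), and 18 of the 18264 genes tested had a lower fold change.

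At 8 cP, *NUAK2* in shTRPV4 cells was -2.15 against SC cells at 0.77 cP (4.45-fold lower, edgeR adjusted p = 4.24e-08) and 0.50 higher than in SC cells at 8 cP (SE 0.16, edgeR adjusted p = 0.0399). The first of these kept its call in all 17 refits. The second was lost in 8 of 17: with the 6 samples compared alone (0.071), with a replicate block (0.0604), and without replicate 1 (0.0568) or 2 (0.0521) of SC cells at 0.77 cP, replicate 2 (0.101) or 3 (0.147) of SC cells at 8 cP, and replicate 2 (0.152) or 3 (0.136) of shTRPV4 cells. Its paralog *NUAK1* was at 51.9 ± 1.49, 46.3 ± 0.518 and 54.5 ± 4.54 CPM (SD, n = 3). *NUAK1* was called only in shTRPV4 against SC cells at 8 cP, 0.24 higher (edgeR adjusted p = 0.00803), a call lost without replicate 2 of the shTRPV4 cells (0.0521).

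*AXL* and *CRIM1* encode membrane proteins, and were the 2 targets that rose with viscosity and were lower with the hairpin. *AXL* (ENSG00000167601, chr19:41219223-41261766, plus strand) encodes a receptor tyrosine kinase whose ligand is GAS6. It was at 1157, 1144 and 1351 CPM in SC cells at 0.77 cP, at 1405, 1404 and 1458 CPM in SC cells at 8 cP, and at 1195, 1122 and 1126 CPM in shTRPV4 cells. The SC samples at 8 cP lay above all others, replicate 3 at 0.77 cP being the nearest to them. *AXL* rose by 0.22 with viscosity (SE 0.0586, edgeR adjusted p = 0.0155), was -0.31 in shTRPV4 against SC cells at 8 cP (SE 0.0587, edgeR adjusted p = 0.0017) and -0.085 against SC cells at 0.77 cP (95% interval -0.21 to 0.0399, edgeR adjusted p = 0.269). The rise with viscosity was lost without replicate 1 (0.0797) or 2 (0.0748) of SC cells at 0.77 cP or replicate 3 of SC cells at 8 cP (0.0674).

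*CRIM1* (ENSG00000150938, chr2:36355778-36551135, plus strand) encodes a membrane protein with cysteine-rich repeats that binds bone morphogenetic proteins. It was at 271, 270.0 and 286 CPM in SC cells at 0.77 cP, at 300.2, 305 and 317 CPM in SC cells at 8 cP, and at 255, 262 and 271 CPM in shTRPV4 cells. As for *AXL*, the SC samples at 8 cP lay above the rest and the other two groups overlapped. The log2 fold change was 0.16 with viscosity (SE 0.0441, edgeR adjusted p = 0.0233), -0.23 in shTRPV4 against SC cells at 8 cP (SE 0.0441, edgeR adjusted p = 0.00216) and -0.070 against SC cells at 0.77 cP (95% interval -0.164 to 0.0241, edgeR adjusted p = 0.225). The first call was lost without replicate 1 (0.0878) or 2 (0.0859) of SC cells at 0.77 cP or replicate 3 of SC cells at 8 cP (0.11). *CRIM1* shares 177 exon bases, and *AXL* 67, with lncRNA genes on the other strand.

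The other TAM receptors and their ligands were lower in level than *AXL*. *TYRO3* was at 30.5 ± 2.77, 34.7 ± 1.99 and 29.3 ± 1.54 CPM (SD, n = 3) and was -0.24 in shTRPV4 against SC cells at 8 cP (edgeR adjusted p = 0.0193). That call was lost without replicate 1 (0.0558) or 3 (0.0822) of SC cells at 8 cP or replicate 2 (0.0794) or 3 (0.0578) of the shTRPV4 cells. *MERTK* was called in no comparison. The ligand *GAS6* was at 294 ± 3.77, 267 ± 5.81 and 275 ± 4.98 CPM (SD, n = 3) and fell by 0.14 with viscosity (edgeR adjusted p = 0.0275), opposite to its receptor. This call was lost with no filter on low counts (0.0609) and without any 1 of the 6 SC samples (0.0562 to 0.169). The other ligand, *PROS1*, was called only between shTRPV4 cells and SC cells at 0.77 cP (-0.25, edgeR adjusted p = 0.00832), a call lost without replicate 2 of SC cells at 0.77 cP (0.0647).

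*ARHGEF17* and *ASAP1* encode regulators of small GTPases. *ARHGEF17* (ENSG00000110237, chr11:73308276-73369388, plus strand) encodes an exchange factor that activates RhoA. It was at 67.4, 64.3 and 63.1 CPM in SC cells at 0.77 cP, at 62.9, 59.7 and 58.9 CPM in SC cells at 8 cP, and at 58.0, 58.8 and 54.8 CPM in shTRPV4 cells. The samples of no 2 groups overlapped, and the levels lay in descending order of the groups. The log2 fold change was -0.10 with viscosity (95% interval -0.204 to -0.00113, edgeR adjusted p = 0.147) and -0.082 with the hairpin at 8 cP (95% interval -0.183 to 0.0198, edgeR adjusted p = 0.259), neither called. It was -0.18 between shTRPV4 cells and SC cells at 0.77 cP (SE 0.0478, edgeR adjusted p = 0.00564). *ARHGEF17* shares 979 exon bases with ARHGEF17-AS1 on the other strand.

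Of the exchange factors nearest to it, *ARHGEF10* was below 0.5 CPM in both groups at 8 cP and not called. *ARHGEF10L* was at 22.1 ± 1.42, 17.0 ± 1.67 and 13.1 ± 0.973 CPM (SD, n = 3). It fell in all 3 comparisons, by 0.37 with viscosity (edgeR adjusted p = 0.00544), by 0.38 with the hairpin at 8 cP (0.00391) and by 0.75 between shTRPV4 cells and SC cells at 0.77 cP (3.57e-06).

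*ASAP1* (ENSG00000153317, chr8:130052104-130443674, minus strand) encodes an activator of the GTPase activity of ARF proteins, found at focal adhesions. It was at 124, 117 and 131 CPM in SC cells at 0.77 cP, at 138, 128 and 135 CPM in SC cells at 8 cP, and at 160, 156 and 151 CPM in shTRPV4 cells. The shTRPV4 samples lay above all SC samples, and the SC groups overlapped. *ASAP1* was 0.22 higher in shTRPV4 than in SC cells at 8 cP (SE 0.0493, edgeR adjusted p = 0.00536) and 0.33 higher than in SC cells at 0.77 cP (SE 0.0494, edgeR adjusted p = 8.68e-05). The difference with viscosity, 0.11 (95% interval 0.00025 to 0.21, edgeR adjusted p = 0.151), passed only without replicate 3 of SC cells at 0.77 cP (0.16, adjusted p = 0.036). *ASAP1* shares 575 exon bases with a lncRNA gene on the other strand.

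The paralogs of *ASAP1* were lower in shTRPV4 cells, where *ASAP1* was higher. *ASAP2* was at 99.6 ± 1.88, 97.2 ± 2.28 and 83.6 ± 2.35 CPM (SD, n = 3) and was lower in shTRPV4 cells. Its log2 fold change there was -0.22 against SC cells at 8 cP (edgeR adjusted p = 0.00201) and -0.25 against those at 0.77 cP (0.000197). *ASAP3* was at 62.5 ± 6.79, 49.4 ± 4.87 and 34.4 ± 2.44 CPM (SD, n = 3). Its log2 fold changes were -0.34 with viscosity (edgeR adjusted p = 0.0106), -0.53 with the hairpin at 8 cP (0.000388) and -0.86 between shTRPV4 cells and SC cells at 0.77 cP (1.22e-06). The first was lost without replicate 1 (0.0732) or 2 (0.0581) of SC cells at 0.77 cP or replicate 3 of SC cells at 8 cP (0.0684). Of the 21 paralogs and partners listed, 15 were tested, and 4, 6 and 7 of them were called in the 3 comparisons in order, 1, 2 and 2 of these being higher. These are 26.7%, 40.0% and 46.7% of those tested, beside 19.3%, 20.0% and 42.4% of all genes.

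Levels of different genes were compared per kb of exon. In SC cells at 0.77 cP the order was *CCN1* (389 CPM per kb), *ANKRD1* (257), *AXL* (237), *CCN2* (156), *F3* (154), *CRIM1* (37.9), *AMOTL2* (35.5), *ASAP1* (15.0), *ARHGEF17* (6.55) and *NUAK2* (4.89). Neighbours whose samples overlapped were *ANKRD1* and *AXL*, *CCN2* and *F3*, and *CRIM1* and *AMOTL2*. In SC cells at 8 cP, *AXL* (277 CPM per kb) came next to the top, with samples that overlapped those of *CCN1* (285), and every other pair of neighbours was apart. After these came *ANKRD1* (203 CPM per kb), *F3* (151) and *CCN2* (129). In shTRPV4 cells *ANKRD1* (311 CPM per kb) overlapped *CCN1* (342), and *AXL* (224) and *F3* (203) came after them. The last 5 places were held by the same genes in the same order in all 3 groups, and *NUAK2* fell to 0.777 CPM per kb in SC cells and 1.101 CPM per kb in shTRPV4 cells at 8 cP.

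**Figure D4:**
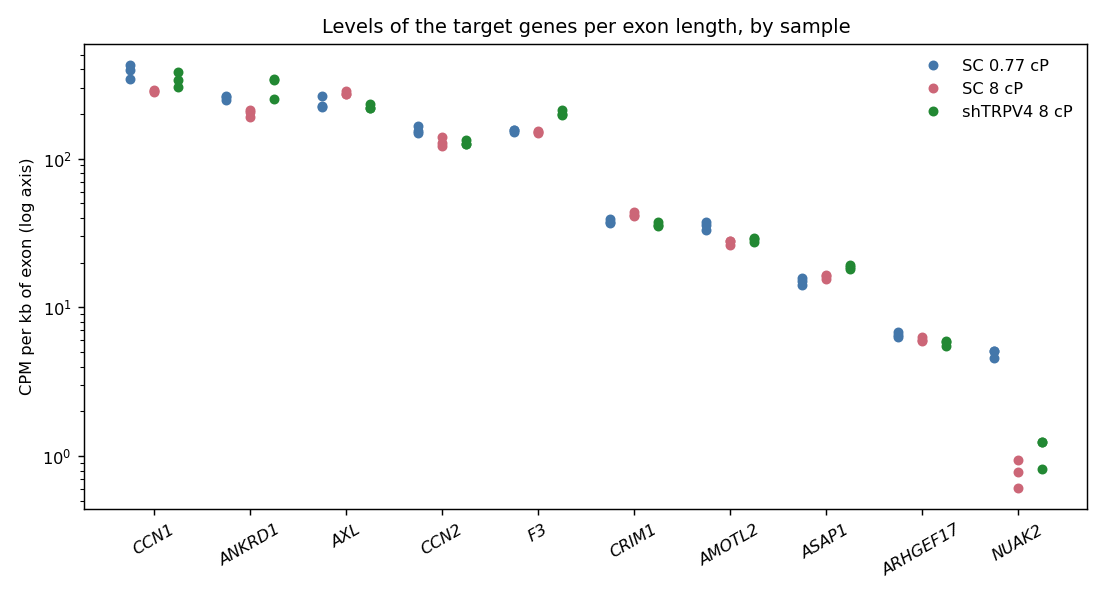
Level per kb of exon (y axis, CPM per kb, log axis) of each target in each sample, with the genes on the x axis in their order in SC cells at 0.77 cP and 1 colour per group. CCN1, ANKRD1, AXL, CCN2 and F3 lie above 100 CPM per kb in all 9 samples, and NUAK2 is the lowest in every group.

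Over the 9 samples, which form 3 groups, some targets followed each other. The log2 CPM of *AMOTL2* and *NUAK2* had a Pearson r of 0.93, that of *AXL* and *CRIM1* 0.91 and that of *CCN2* and *NUAK2* 0.85, while *ANKRD1* and *AXL* had -0.87 and *CCN1* and *AXL* -0.78. The points share their library and group, so these values describe the groups and carry no p. The search for like patterns took in 13108 genes averaging 1 CPM or more, and the gene most like each target over the same 9 samples was *WIPI2* for *F3* (r 0.99), *SF3B3* for *ASAP1* (0.99), *TFF1* for *NUAK2* (0.99), *GRK6* for *AXL* (0.98), *HMGN2P5* for *CRIM1* (0.98), CD27-AS1 for *CCN1* (0.97), *SETDB1* for *AMOTL2* (0.96), *GDF15* for *CCN2* (0.96) and *NUAK1* for *ANKRD1* (0.96).

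The factors that act on these targets were also read as RNA, which does not show where the proteins are in the cell. *YAP1* was at 155, 171 and 172 CPM in SC cells at 0.77 cP, at 186, 182 and 188 CPM in SC cells at 8 cP, and at 131, 129 and 126 CPM in shTRPV4 cells, with no overlap between groups. It rose by 0.16 with viscosity (edgeR adjusted p = 0.0279) and was -0.53 in shTRPV4 against SC cells at 8 cP (1.73e-06) and -0.37 against those at 0.77 cP (1.59e-05). The rise was lost without replicate 1 of SC cells at 0.77 cP (0.122) or replicate 1 (0.0668) or 3 (0.0985) of SC cells at 8 cP. *WWTR1* (TAZ) was at 101 ± 0.752, 96.2 ± 6.10 and 86.7 ± 1.75 CPM (SD, n = 3) and was lower in shTRPV4 cells. Its log2 fold change there was -0.15 against SC cells at 8 cP (edgeR adjusted p = 0.0383) and -0.22 against those at 0.77 cP (0.00164). The former was lost with library sizes alone (0.0927), with the 6 samples compared alone (0.0522), and without replicate 2 of SC cells at 0.77 cP (0.0516), replicate 1 of SC cells at 8 cP (0.212) or replicate 2 (0.125) or 3 (0.0809) of shTRPV4 cells.

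*TEAD4* was at 16.3 ± 2.07, 20.2 ± 0.343 and 21.1 ± 0.722 CPM (SD, n = 3), higher at 8 cP in SC cells by 0.30 (edgeR adjusted p = 0.0135) and in shTRPV4 cells by 0.36 (0.00122), both against SC cells at 0.77 cP. The former was lost without replicate 1 (0.0724) or 2 (0.062) of SC cells at 0.77 cP or replicate 3 of SC cells at 8 cP (0.0505). *VGLL4*, which competes with YAP for TEAD, was at 23.1 ± 0.258, 21.4 ± 0.463 and 17.5 ± 0.257 CPM (SD, n = 3) and was lower in shTRPV4 cells. Its log2 fold change there was -0.29 against SC cells at 8 cP (edgeR adjusted p = 0.00131) and -0.40 against those at 0.77 cP (2.35e-05). Of the 8 factors, 2, 3 and 4 were called in the 3 comparisons in order, or 25%, 37.5% and 50% beside 19.3%, 20.0% and 42.4% of all genes. *TEAD1*, *TEAD2*, *TEAD3* and *VGLL3* did not pass in edgeR's test. Nearest to the threshold was *TEAD2*, at 0.15 with viscosity (edgeR adjusted p = 0.0904) and -0.18 in shTRPV4 against SC cells at 8 cP (0.0534), with no overlap in either. The count between the groups at 8 cP was 4 with DESeq2, upper quartile scaling, at least 10 counts in every sample or replicate 1 of shTRPV4 cells left out, and was 2 with library sizes alone, with the 6 samples compared alone, or without replicate 2 of SC cells at 0.77 cP or replicate 2 or 3 of shTRPV4 cells.

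A further 22 genes listed as YAP/TAZ targets were set beside the 10. With viscosity 4 of 22 were called (18.2%, beside 19.3% of all genes), 1 higher and 3 lower, with a median log2 fold change of 0.0026. *FJX1* rose by 0.21 (edgeR adjusted p = 0.0191), a call lost without replicate 1 of SC cells at 0.77 cP (0.0897) or replicate 3 of SC cells at 8 cP (0.0848). *AREG*, a growth factor that activates the EGF receptor, fell by 0.84 (edgeR adjusted p = 5.02e-05), *EDN1*, the vasoconstrictor endothelin, by 0.68 (0.000231) and *GADD45A*, a stress-induced cell cycle gene, by 0.65 (5.82e-06). In CPM, *AREG* went from 282 ± 25.9 to 157 ± 19.7 (SD, n = 3).

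In shTRPV4 against SC cells at 8 cP, 11 of the 22 were called (50%, beside 20.0% of all genes), 5 higher and 6 lower, with a median of -0.020. *INHBA*, a subunit of activin, was higher by 0.92 (edgeR adjusted p = 0.000265) and *GLI2*, a factor of the Hedgehog pathway, by 0.37 (0.00334). *AREG* was -0.42 (edgeR adjusted p = 0.00638), *NT5E*, the ectonucleotidase CD73, -0.38 (1.23e-05) and *RBMS3*, an RNA-binding protein, -0.28 (0.0042).

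In shTRPV4 cells against SC cells at 0.77 cP, 16 of the 22 were called (72.7%, beside 42.4% of all genes), 8 in each direction, with a median of -0.0034. *INHBA* was higher by 0.52 (edgeR adjusted p = 0.00598) and *GLI2* by 0.37 (0.00118). *AREG* was -1.27 (edgeR adjusted p = 1.42e-07), *GADD45A* -0.85 (9.61e-08) and *EDN1* -0.75 (1.3e-05).

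**Figure D5:**
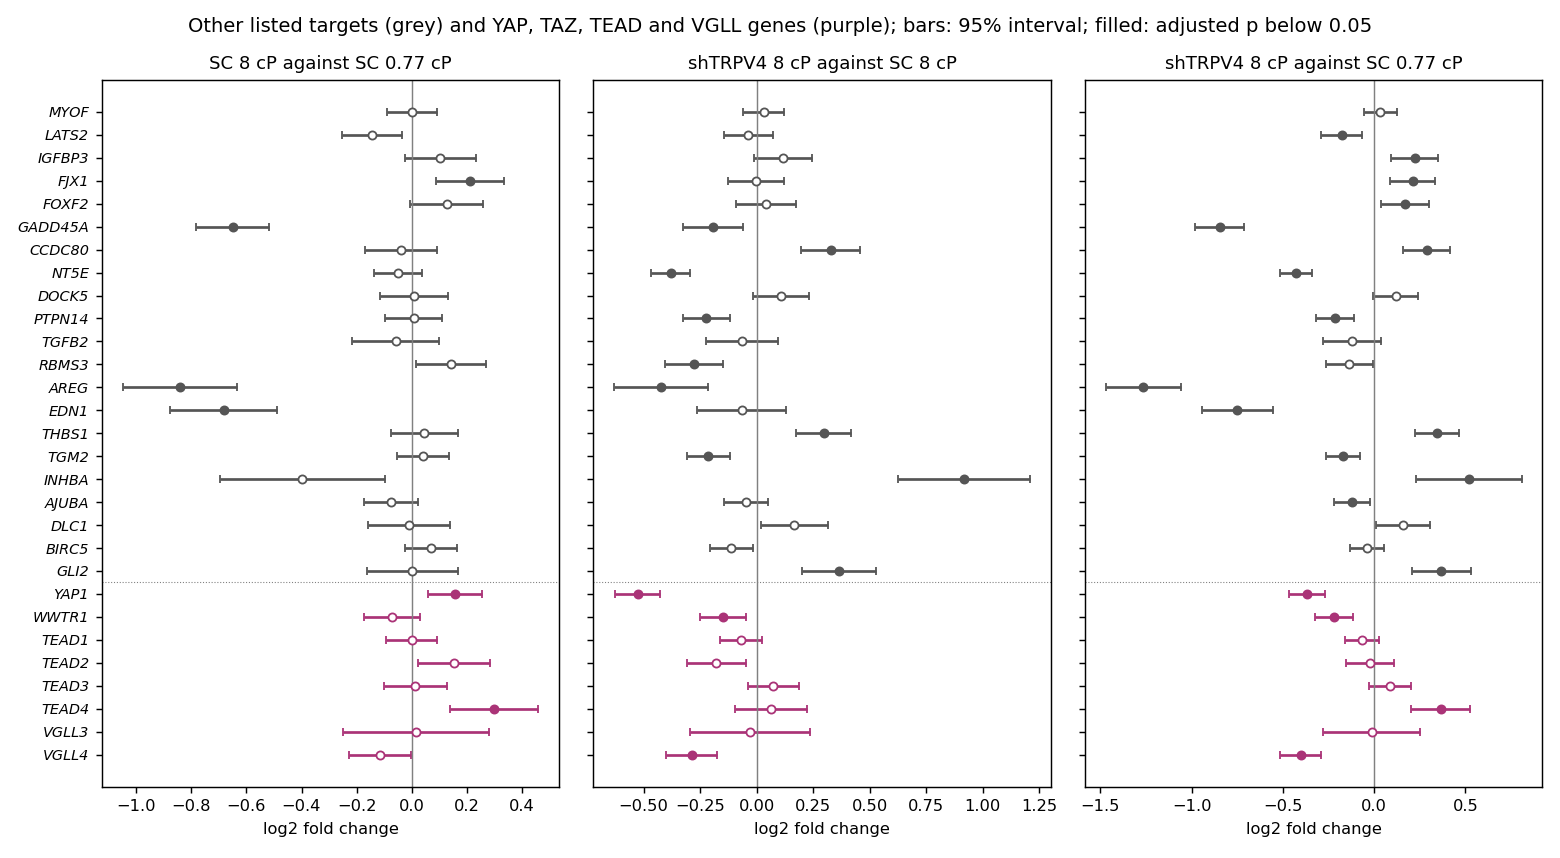
Log2 fold change (x axis) with its 95% interval of 21 of the 22 other listed targets (grey) and 8 factor genes (purple) in the 3 comparisons, filled where the adjusted p was below 0.05. AREG lies furthest below 0 in the left and right panels, and YAP1 lies above 0 in the left panel and below 0 in the other two.

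Immediate early genes, several of them AP-1 subunits or induced within minutes by serum or calcium, moved with viscosity in the same samples. Of 18 listed, 15 were lower and 1 higher in SC cells at 8 cP than at 0.77 cP, with a median log2 fold change of -1.27. Of all genes, 9.69% were lower and 9.57% higher in that comparison. In shTRPV4 against SC cells at 8 cP, 5 were lower and 2 higher (median -0.18), beside 11.0% and 9.02% of all genes. In shTRPV4 cells against SC cells at 0.77 cP, 16 were lower and 1 higher (median -1.50), beside 22.0% and 20.4% of all genes. Their part in the changes of the targets was not tested.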

How the data were processed

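RNA-seq of 9 MDA-MB-231 samples (3 groups of 3) was analysed. The authors made stranded poly(A) libraries, sequenced pairs of 100 bp, and used HISAT2 2.2.1, SAMtools 1.1.3 and HTSeq 0.13.5 with GRCh38 and Ensembl 104; they deposited raw counts per gene, 1 table per sample. The strand option of the counting is not given in the sources used here. Groups and replicate numbers came from the sample labels.

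Tests ran on edgeR 4.0.16 and limma 3.58.1 (R 4.3.3). Genes were kept by filterByExpr, scaled by TMM and tested with the quasi-likelihood test, with 1 coefficient per group over all 9 samples, Benjamini-Hochberg adjustment and a threshold of 0.05. CPM are relative to the TMM-scaled library; CPM per kb used the exon length of GENCODE 44, which also gave positions. Intervals are 95%. Libraries carry no molecular identifiers. The common biological coefficient of variation was 0.0633.

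The targets and all lists were chosen with earlier results of these data known. Named beside the 10 targets were the called factors, the paralogs and partners, and per comparison the 3 largest called changes in each direction of 22 other listed targets (1 gene that this rule selects is not reported here); the most alike genes were sought for targets called in at least 2 comparisons. Alternatives were DESeq2 1.42.0, 3 other scalings, other filters (none, or at least 10 counts in every sample), the 6 samples compared alone, a replicate block, a change of 1 or more on the log2 scale, and leaving out each sample. Same-numbered samples of different groups had correlations of deviations from -0.0546 to 0.0904 and the others from -0.106 to 0.115, so the numbers were not taken as pairs.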

Additional observations from a re-analysis of the deposited data

How the results depend on the processing

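The 30 fold changes of the targets (10 genes, 3 comparisons) were recomputed under 17 alternatives each, 510 in all: 476 kept their direction and side of the threshold, 25 lost a call, 4 gained one and 5 turned direction. The cause was not tested. The turned values were small and uncalled: *CCN2* in shTRPV4 against SC cells at 8 cP became 0.0146 with library sizes alone, 0.0441 without replicate 3 of SC cells at 8 cP, and 0.0053 and 0.0035 without replicate 1 and 2 of shTRPV4 cells (range with 1 sample left out -0.057 to 0.0441), and *AXL* in shTRPV4 cells against SC cells at 0.77 cP became 0.0055 without replicate 3 of the latter (range -0.12 to 0.0055). Of 1001 alternatives for 59 called fold changes of other listed genes, 933 were unchanged in call and direction and 68 lost the call.

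With a change of 1 or more on the log2 scale required, the targets called numbered 1, 0 and 1 in the 3 comparisons, the other listed targets 0, 0 and 1, and the factors 0, 0 and 0, beside 1.41%, 1.89% and 4.64% of all genes. Leaving out 1 sample at a time gave 4 to 8, 5 to 7 and 6 to 7 targets, 3 to 6, 10 to 13 and 14 to 18 other listed targets, and 0 to 2, 2 to 4 and 4 factors. The factors called with viscosity went from 2 to 0 without replicate 1 of SC cells at 0.77 cP or replicate 3 of SC cells at 8 cP, and to 1 without replicate 2 of the former or replicate 1 of the latter. The share of all genes called was 11.1%, 11.3% and 21.9% with no filter on low counts. Leaving out 1 sample took it as low as 7.56% and 11.7% in the first 2 comparisons. Shares with 1 sample left out in the third comparison, and with the replicate block, are not reported here. With the replicate block, the only target call lost was that of *NUAK2* in shTRPV4 against SC cells at 8 cP. Of 9 samples, 2 correlated best with a sample of their own number. With 3 samples a group, an exact permutation test of a single gene cannot go below 0.1.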
